A study of Caenorhabditis elegans with 2 samples.

Results

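The 808 SCC-1 peaks of Caenorhabditis elegans chromosome IV were taken from the peak list of 1 ChIP-seq library as all peaks listed on that chromosome, out of 4534 peaks on 6 chromosomes. The study made 1 SCC-1 ChIP library and 1 input DNA library, each labelled replicate 1, and the peak list of the ChIP library was analysed here. Both libraries came from fem-2(b245)III hermaphrodites described as young adults with a germline, at 20 °C. The extracts were of whole animals, and the growth protocol, unlike the stage label, speaks of gravid adults. With 1 ChIP library there was no replicate error and no test of any difference. The intervals below are 95% intervals that treat each peak as independent, which neighbouring peaks are not. Those of differences are approximate, and the others are exact. All cover only counting error or, for medians and their differences, the spread among the peaks. The sequencing depth is unknown, because the list holds no read counts.

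SCC-1 is the kleisin, the closing subunit, of the cohesin ring that holds sister chromatids together in mitosis. Other kleisins take its place in much of meiosis. ChIP and input chromatin both carried the fem-2(b245) allele, and no other genotype was profiled. The fem-2 gene encodes a phosphatase needed for male development, and b245 is known as a temperature-sensitive allele. Chromosome IV is the home of most C. elegans piRNA genes, which are short transcription units read singly in germ cells, whose small RNAs guide a Piwi protein to foreign and transposon transcripts. The RefSeq gene table used here, of the WBcel235 build, places 14714 of its 15363 piRNA genes on IV (95.8%), against 649 on the other 5 chromosomes. That build differs from the WS220 build of the peaks, and peaks were therefore not matched to genes. The regions of the piRNA gene clusters were taken as 4.5 to 7.0 Mb, called the first piRNA region, and 13.5 to 17.2 Mb, called the second, and where the piRNA genes lie within them was not examined.

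Chromosome IV had fewer SCC-1 peaks per Mb than the other autosomes together, but more peaks at the top of the score. It held 46.3 peaks per Mb (43.1 to 49.6), against 53.5 (51.8 to 55.3) on I, II, III and V pooled, a ratio of 0.865 (0.800 to 0.934). The other autosomes lay on both sides of it, with 36.8 peaks per Mb on V, 50.5 on II, 66.8 on III and 67.6 on I. The interval of the ratio included 1 without I in the pool (0.939, 0.866 to 1.02), without III (0.926, 0.855 to 1.003), without the second piRNA region (0.934, 0.859 to 1.01) and in the higher-scoring 50% of the list (0.902, 0.809 to 1.003). The interval also included 1 with gaps under 5000 bp merged (0.944, 0.853 to 1.04) and with X added to the pool (1.03, 0.9497 to 1.11). It lay below 1 without V (0.753, 0.696 to 0.815), without II (0.8498, 0.785 to 0.9196) and with gaps under 200 bp merged (0.867, 0.801 to 0.939). Peaks covered 9.44% of IV and 10.5% of the other autosomes. Per 1000 protein-coding genes, IV had 246 peaks, against 249 on the other autosomes pooled, from 154 on V and 223 on II to 348 on III and 353 on I.

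The median width of peaks on IV had an interval that overlapped that of the other autosomes pooled. It was 1552.5 bp (1481 to 1636) on IV and 1508 bp (1479 to 1540) on the other autosomes, a difference of 44.5 bp with an interval of -33.8 to 133. By chromosome, the intervals of I, II and III overlapped that of IV. Those of V (1420.5 bp, 1368 to 1474) and X (1103.5 bp, 1058 to 1164) lay below it. The quartiles on IV were 1146 and 2446 bp, and 33 of the 808 peaks (4.08%) were at least 5000 bp wide, against 3.97% on the other autosomes. Wider peaks tended to score higher among the 808 peaks (Spearman's rho = 0.70, a description, since all peaks share 1 library).

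Peaks at the top of the score made up a larger share on IV than on any other chromosome. The score is the authors' own value for each peak, its scale is not stated, and it was used only within this list. On IV 117 peaks had the value 3100 exactly and 3 had a larger one, so a score of 3100 or more was treated as 1 tied class at a ceiling, called the top class. It held 120 of the 808 peaks of IV (14.9%, 12.5 to 17.5), against 10.1% of all peaks in the list. The share was 8.81% (7.89 to 9.80) on the other autosomes, from 7.50% on III to 8.55% on I, 8.97% on II and 10.5% on V, and 12.3% (8.51 to 17.005) on X. The intervals of V (8.46 to 12.9) and X overlapped that of IV. The difference between IV and the other autosomes was 6.04 percentage points (3.46 to 8.84). When the second piRNA region was left out, IV still had 85 of 688 peaks in the top class (12.4%), and the difference was 3.55 points (0.981 to 6.39).

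IV had both more top-class peaks and fewer peaks below the ceiling per Mb than the other autosomes pooled. IV had 6.87 top-class peaks per Mb (5.70 to 8.22), against 4.71 (4.201 to 5.27) on the other autosomes, a ratio of 1.46 (1.17 to 1.81). It had 39.4 lower-scoring peaks per Mb, against 48.8, a ratio of 0.807 (0.742 to 0.877). Lower-scoring peaks were more dense than on IV on I, II and III, but less dense on V (32.9 per Mb) and X (12.5). The top-class densities of I (5.78, 4.63 to 7.13), II (4.53, 3.52 to 5.73) and III (5.01, 3.90 to 6.34) had intervals that overlapped that of IV. Those of V (3.88) and X (1.75) lay below it. Among the 356 peaks of IV that scored at least 500, 33.7% (28.8 to 38.9) were in the top class, against 21.4% (19.3 to 23.6) of 1430 on the other autosomes. By that measure X was higher than IV, at 43.1% (31.4 to 55.3), and the interval of V, at 28.1% (23.0 to 33.7), overlapped that of IV. At matched width, 23.3% (16.8 to 30.9) of the peaks of 2000 up to 3000 bp on IV were in the top class, against 10.5% (8.16 to 13.2) on the other autosomes. In the other classes of width the intervals overlapped. From 3000 up to 5000 bp the share was 41% (31.3 to 51.3), against 30.3% (25.4 to 35.5), and from 1500 up to 2000 bp it was 7.69%, against 6.14%.

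Along IV the peak count varied little over most of the length and was lower near the right end. The 17 complete windows of 1 Mb held 46.4 ± 10.4 peaks (SD, n = 17 windows), from 29 to 60 with a median of 48. The fullest window was the twelfth (11000001 to 12000000), with 60 peaks and 7 of at least 5000 bp. Windows 15, 16 and 17, all within the second piRNA region, held 30, 29 and 30, and each of the other 14 held at least 37. The emptiest was window 16 (15000001 to 16000000).

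The number of top-class peaks per window did not follow the number of other peaks (Spearman's rho = -0.02 over 17 windows, a description). Top-class peaks ran from 2 per window, in the sixth and the seventh, to 13 in the fifth and in window 16. The share in the top class was lowest in the seventh window, at 4.26% of 47 peaks. It was highest in window 16, at 44.8% of 29 peaks.

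**Figure D1:**
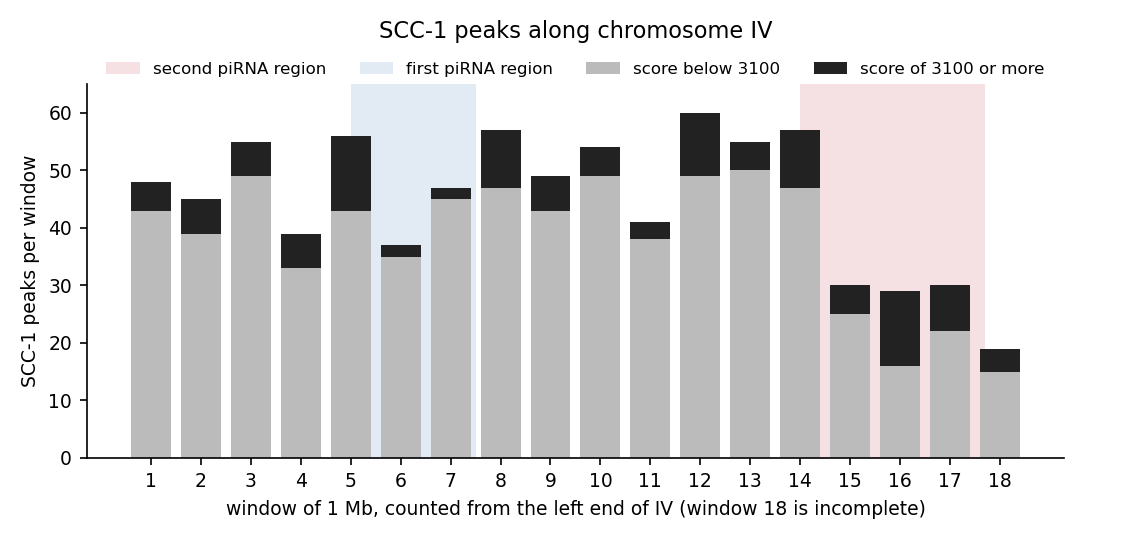
Number of SCC-1 peaks in each 1 Mb window of chromosome IV, split into scores of 3100 or more (black) and below (grey), with the piRNA regions shaded. Windows 15 to 17 hold 29 to 30 peaks each, and window 16 holds 13 top-class peaks, as many as the fifth window has among 56.

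When each chromosome was divided into 10 equal parts, the density of IV lay below that of the other autosomes, with intervals that did not overlap, in the fourth and the last part. In the first 8 parts the densities of IV lay between 44.1 and 57.3 peaks per Mb, while those of the other autosomes spanned 38.98 to 67.0. The fourth part of IV had 44.1 peaks per Mb (34.8 to 55.1), against 65.01 (59.0 to 71.5) on the other autosomes. The ninth and the last part of IV had 31.5 (23.7 to 41.0) and 30.9 (23.2 to 40.4), against 42.1 (37.2 to 47.4) and 47.8 (42.6 to 53.4), and the intervals of the ninth part overlapped. Their top-class shares were 25.5% (14.7 to 39.0) and 29.6% (17.98 to 43.6), against 6.96% (4.24 to 10.7) and 11.9% (8.55 to 16.1). In these 2 parts the interval of the share on IV did not overlap that of the other autosomes, and in the other 8 parts it did.

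**Figure D2:**
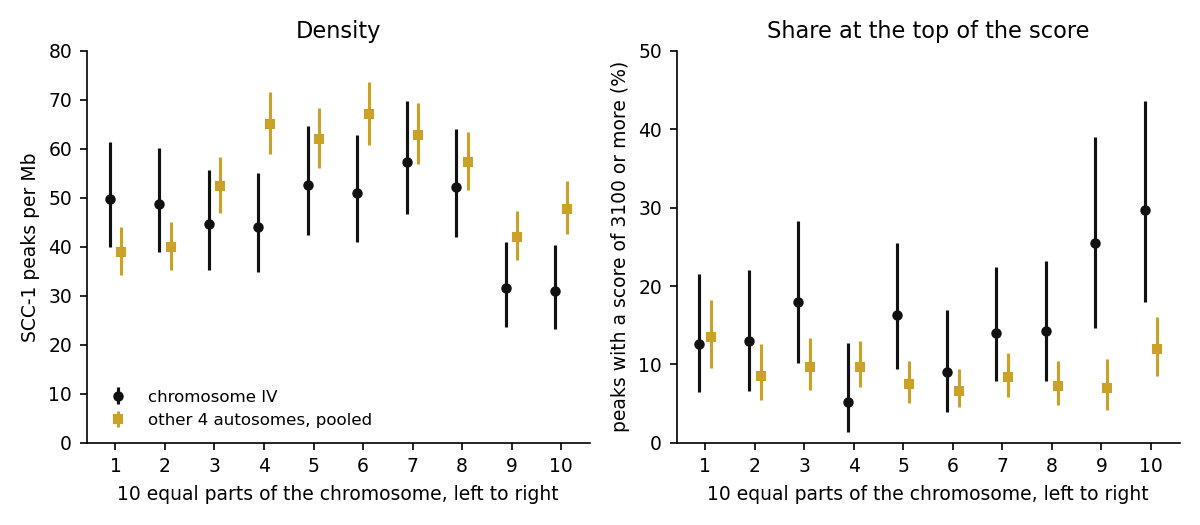
Density of SCC-1 peaks per Mb (left panel) and percentage of peaks with a score of 3100 or more (right panel) in 10 equal parts of chromosome IV (circles) and of I, II, III and V pooled (squares); bars are exact 95% counting intervals. In the last 2 parts IV lies at 25.5% and 29.6%, against 6.96% and 11.9% on the other autosomes.

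The second piRNA region had fewer peaks per Mb than the rest of IV, and a larger share of them in the top class. It held 120 peaks over 3.7 Mb, or 32.4 per Mb (26.9 to 38.8), against 577 peaks and 51.2 per Mb (47.1 to 55.6) in the rest of IV outside both regions, a ratio of 0.633 (0.516 to 0.772). Of its peaks 35 were in the top class (29.2%, 21.2 to 38.2), against 73 in the rest of IV (12.7%, 10.0 to 15.6). The difference was 16.5 percentage points (8.03 to 25.9). In the higher-scoring 50% of the list the density ratio was 0.795, with an interval (0.609 to 1.03) that included 1. The region covers 21.2% of the length of IV and holds 14.9% of its peaks and 29.2% of its top-class peaks. Its median score was 888 (411 to 1648), against 353 (280 to 413) in the rest.

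The lower density of the second region was in peaks below the ceiling. It had 22.97 such peaks per Mb (18.3 to 28.4), against 44.8 (40.9 to 48.8) in the rest of IV, a ratio of 0.513 (0.403 to 0.647). Top-class peaks numbered 9.46 per Mb (6.59 to 13.2), against 6.48 (5.08 to 8.15), and the interval of that ratio, 1.46 (0.946 to 2.21), included 1. Every class below the ceiling was less dense there than in the rest. Peaks scoring from 250 up to 500 had 3.24 per Mb (1.68 to 5.67), against 8.88 (7.22 to 10.8). Those from 1000 up to 3100 had 5.95 (3.73 to 9.002), against 8.26 (6.67 to 10.1), where the intervals overlapped. They overlapped from 500 up to 1000 too, at 3.24 (1.68 to 5.67), against 6.39 (5.00 to 8.05). In the classes below 500 they did not.

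**Figure D3:**
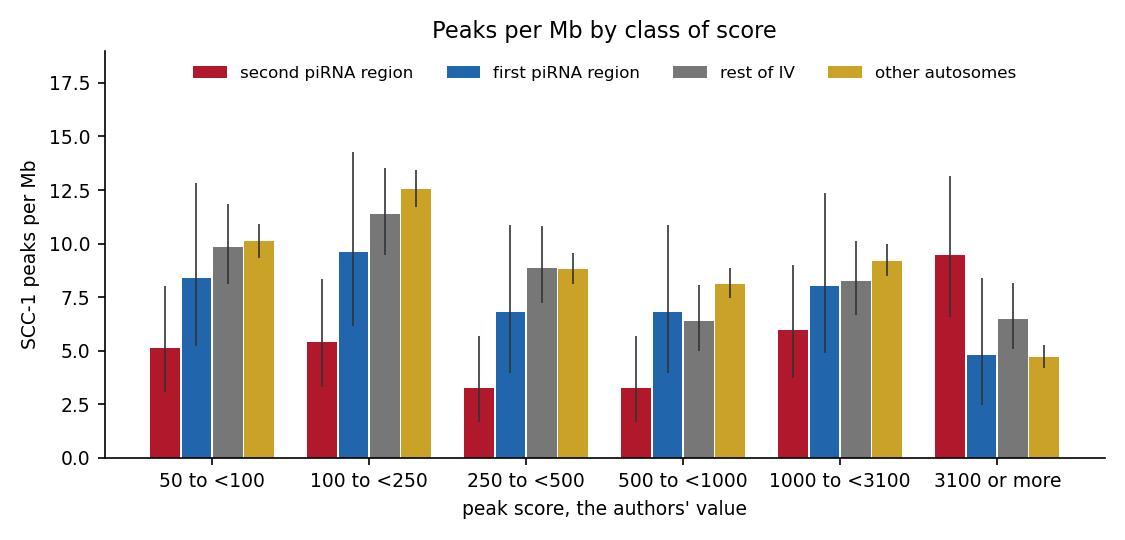
SCC-1 peaks per Mb in 6 classes of score for the second piRNA region, the first piRNA region, the rest of chromosome IV and the other autosomes (bars, with exact 95% Poisson intervals). The second region has the lowest bar in each class below 3100 and, at 9.46 per Mb, the highest in the class of 3100 or more.

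The same relative stretch of the other autosomes, from 77.3% to 98.5% of the length, had a smaller share in the top class. It held 61 top-class peaks among 631 (9.67%, 7.475 to 12.2), from 7.76% on V to 12.4% on II, and 45.9 peaks per Mb. On V the stretch was as thin as the second region of IV, with 26.3 peaks per Mb (21.7 to 31.5), but held 9 top-class peaks among 116. On X the stretch had 10 of 60 in the top class (16.7%, 8.29 to 28.5), an interval that overlapped that of the second region.

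The share and the density were uneven within the second region. Its complete windows 15, 16 and 17 had 5 of 30, 13 of 29 and 8 of 30 peaks in the top class, its part of the fourteenth window had 6 of 21, and its 0.2 Mb of the last window had 3 of 10. The low density lay within windows 15 to 17, but not in all parts of them. By 0.5 Mb, the counts were 15 and 15 from 14000001 to 15000000, and 9 and 10 from 15500001 to 16500000. There were 20 peaks from 15000001 to 15500000 and 20 from 16500001 to 17000000. These counts, like the 21 from 13500001 to 14000000, were near the median of 22 over the 34 complete windows of 0.5 Mb. The 16.7% of window 15 was below the shares of windows 5, 8 and 12, which lie outside the region. Leaving out 1 of its windows at a time gave shares from 24.2% (without window 16) to 33.3% (without window 15). The 13 top-class peaks of window 16 ran from 15058487 to 15973123, and 16 lower-scoring peaks lay in the same window.

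Peaks of the second region were wider at the median, yet its top-class peaks included many narrow ones. The median width was 1826.5 bp (1626 to 1968), against 1514 bp (1412 to 1596) in the rest of IV, a difference of 312.5 bp (95.9 to 487). Among the higher-scoring 50% of the list the difference was -145.5 bp (-486 to 459.6). Against only the 1 Mb on each side of the region it was 414.5 bp (-91.9 to 662). It was 350.5 bp (143 to 533) with the edges moved inward by 0.25 Mb and 306.5 bp (111 to 472) with them moved outward. It was 323.5 bp (79.8 to 488) with gaps under 200 bp merged and 310.5 bp (86.9 to 486) with the outer 1 Mb left out of the rest. The top-class peaks of the second region had a median of 2655 bp, against 3507 bp in the rest. The difference was -852 bp, with an interval of -1523 to 158. Peaks below the ceiling had a median of 1597 bp in the second region, against 1386 bp in the rest. The difference was 211 bp (-36.3 to 478). In both classes the interval included no difference. Of the 35 top-class peaks, 11 were narrower than 2000 bp (31.4%), against 8 of 73 in the rest (10.96%). In the same relative stretch of the other autosomes it was 18 of 61 (29.5%), close to the second region. The 3 narrowest top-class peaks of all IV lay in the second region, at 16614746 to 16615919 (1174 bp), 15530088 to 15531328 (1241 bp) and 17075582 to 17076823 (1242 bp). The region also held 5 of the 10 narrowest. Its 3 widest top-class peaks spanned 7315 bp (15075754 to 15083068), 6008 bp (13507920 to 13513927) and 5653 bp (14475907 to 14481559).

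At matched width the second region had the larger share in the top class in the 5 classes above 1000 bp. From 1000 up to 1500 bp it was 5 of 31 peaks (16.1%, 5.45 to 33.7), against 4 of 240 (1.67%, 0.456 to 4.21) in the rest of IV and 1.47% on the other autosomes. From 1500 up to 2000 bp it was 6 of 30 (20.0%, 7.71 to 38.6), against 4 of 96 (4.17%, 1.15 to 10.3), and these intervals overlapped. From 3000 up to 5000 bp it was 12 of 18 (66.7%, 41.0 to 86.7), against 25 of 69 (36.2%, 24.99 to 48.7), again with overlap. The intervals overlapped from 2000 up to 3000 bp too (34.6% against 20.8%), and at 5000 bp or more only 3 peaks were present. Under 1000 bp none of 12 peaks was in the top class, which allows up to 26.5%, against none of 46 in the rest, which allows up to 7.71%. With the rest of IV reweighted to the widths of the region, the difference in share was 15.9 points.

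**Figure D4:**
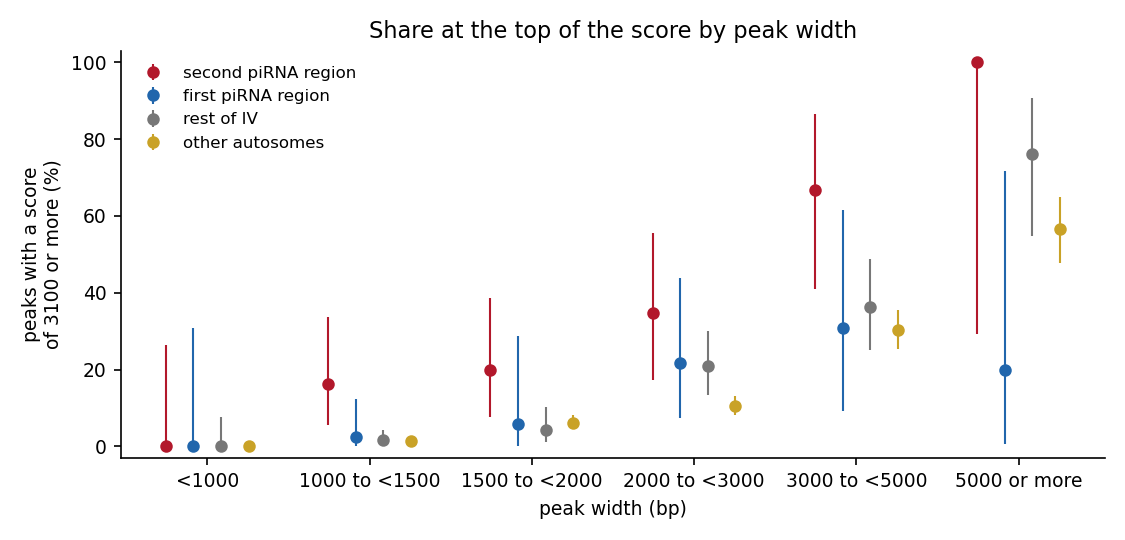
Percentage of SCC-1 peaks with a score of 3100 or more in 6 classes of peak width (bp), for the second piRNA region, the first piRNA region, the rest of chromosome IV and the other autosomes; bars are exact 95% intervals. Between 1000 and 2000 bp the second region lies at 16.1% and 20.0%, and the rest of IV at 1.67% and 4.17%.

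**Figure D5:**
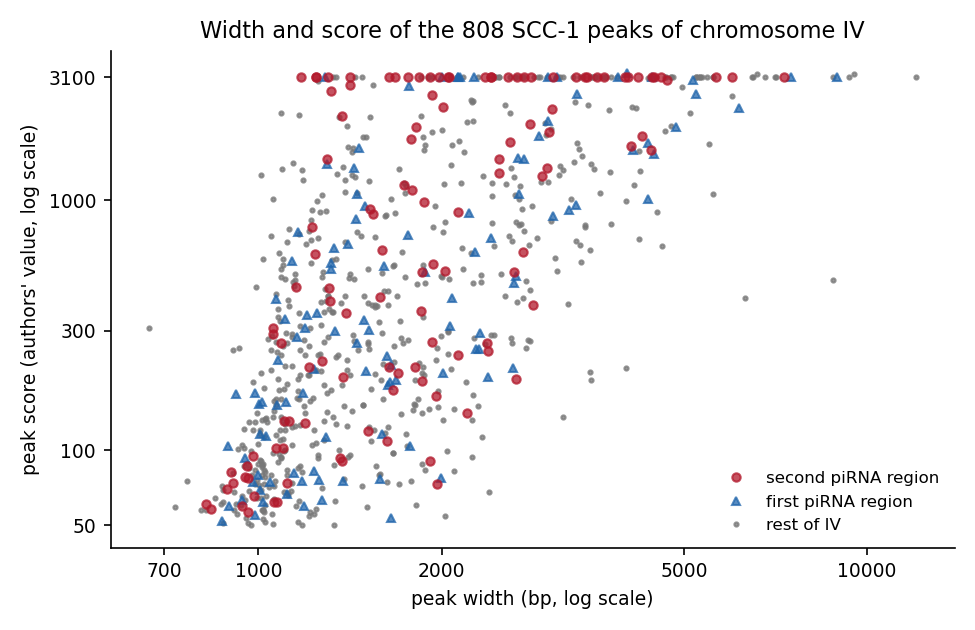
Width (bp) and score of each of the 808 SCC-1 peaks of chromosome IV, both on log scales, marked by the piRNA regions and the rest. The line of points at 3100, treated as the ceiling of the score, holds 117 peaks, and 3 peaks lie above it. Together these 120 peaks are from 1174 bp to 12051 bp wide.

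Most top-class peaks of the second region stood alone. Peaks were joined into chains where the gap between them was under 5000 bp. Of its 35 top-class peaks, 26 were single (74.3%), against 37 of 73 in the rest (50.7%). Of all peaks, 45.8% were single there, against 40.03% in the rest. No chain of the region held more than 1 top-class peak. Neighbouring top-class peaks of the region lay a median of 80.2 kb apart, from 12.6 to 330 kb, against 114 kb in the rest. The region contained 11 of the 22 stretches of at least 100 kb without a peak on IV. The median gap was 10124 bp (6214 to 17966), against 8768 bp (6817 to 10685) in the rest.

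With its edges as given, the first piRNA region differed from the rest of IV in density, share, width and score by amounts whose intervals included no difference. It held 111 peaks over 2.5 Mb, or 44.4 per Mb (36.5 to 53.5), against 51.2, a ratio of 0.867 (0.701 to 1.06). With the edges moved inward by 0.25 Mb the ratio was 0.772 (0.603 to 0.977), which does not include 1. Against the same relative stretch of the other autosomes, which had 62.1 peaks per Mb (57.1 to 67.4), the ratio was 0.715 (0.578 to 0.878). In the top class were 12 peaks (10.8%, 5.71 to 18.1), against 12.7%, a difference of -1.84 points (-7.75 to 5.92). The median width was 1584 bp (1375 to 1774), against 1514 bp, and the median score was 335 (237 to 570), against 353.

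Within the first region the top class was gathered at the left. Its first 0.5 Mb, up to 5 Mb, held 8 of its 12 top-class peaks among 27 (29.6%, 13.8 to 50.2), while the other 2 Mb held 4 among 84 (4.76%, 1.31 to 11.7). This division was chosen after the values were seen. The peak with the largest listed score of the whole list, 3219, lay there from 4657556 to 4661590. In a chain of 6 peaks from 4711646 to 4728667, 3 were in the top class, at 4718940 to 4722029, 4724634 to 4726892 and 4727384 to 4728667. A further chain, from 4920271 to 4927745, consisted of 3 top-class peaks of 2990, 2128 and 2129 bp. It was followed by 157 kb without any peak (4927746 to 5084571). The 4 remaining top-class peaks of the region, at 5469335, 5946341, 6420269 and 6903276, were set 472 to 479 kb apart, and the one at 6903276 was 8909 bp wide. The lower-scoring peaks between them continued, with 17 to 21 in each interval.

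Peaks of the first region were often close together. Of the gaps there, 50.5% were under 5000 bp, against 38.5% in the rest of IV. The median gap was 4307 bp (2881 to 8887), against 8768 bp (6817 to 10685), and these intervals overlapped. A chain of 8 peaks over 23517 bp, from 6317405 to 6340921, had no top-class member and a highest score of 2652. With chains counted as 1 peak each, the density ratio of the first region to the rest was 0.698 (0.515 to 0.929).

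The peaks on either side of an edge differed widely in score at the first region and less at the second, with a single pair of peaks at each edge. Neighbouring peaks away from the edges could differ as widely, such as 3100 at 1658673 to 1660152 and 65.4 at 1660403 to 1661343. At the left edge of the first region the peak just inside, at 4511461 to 4514790, scored 954, and the one before it, at 4467474 to 4474059, scored 3197. At its right edge the last peak inside, at 6973863 to 6979041, scored 3018, and the next, at 7016087 to 7017267, scored 50.05, the lowest value on IV. At the second region the peaks just inside scored 129 on the left (13499601 to 13500792) and 2744 on the right (17155145 to 17156458), and those just outside 75.3 (13476601 to 13478383) and 2234 (17249252 to 17250339). Just under the ceiling, the 3 highest scores were 3098 at 4743347 to 4750835, 3095 at 13093281 to 13097640 and 3026 at 15036519 to 15041203.

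The widest peaks of IV were found in and outside the piRNA regions. The widest spanned 12051 bp from 7477055 to 7489105 at the ceiling. It was followed by 9501 bp from 418575 to 428075 with a score of 3214, 9331 bp from 11332476 to 11341806, 8909 bp from 6903276 to 6912184 in the first region and 8801 bp from 11142051 to 11150851, the last 3 at the ceiling. Of the 33 peaks of at least 5000 bp, 5 were in the first region (4.50% of its peaks) and 3 in the second (2.5%), against 25 in the rest of IV (4.33%). Windows 8 and 12 together held 13 of them. Wide peaks with the lowest scores were much smaller: the widest scoring under 100 spanned 2395 bp (9344818 to 9347212, score 67.9), 2239 bp (3039817 to 3042055, score 93.4) and 2093 bp (9197980 to 9200072, score 82.8).

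On IV 313 of the 488 chains were single peaks and 16 had at least 5 members. The longest by number had 8 peaks, and the widest of the 4 such chains ran from 358822 to 397950 over 39129 bp with 1 top-class member. The longest stretch without any peak spanned 226 kb from 3816001 to 4041501, followed by 168 kb (16676524 to 16844878) and 163 kb (16224591 to 16388063), both in the second region. The longest without a top-class peak, 668 kb from 12571224 to 13238789, still held 26 lower peaks, of which the highest scored 3095. The first peak of IV spanned bases 2 to 662 with a score of 309, and the last ran from 17460423 to 17462041 with a score of 875. Which bases of IV could receive uniquely placed reads is not shown by the list, and its part in these densities was not tested.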

How the data were processed

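ChIP DNA from adult worms was made with 5 µg of an anti-SCC-1 antibody after fixation in 1% formaldehyde for 10 min, per the labels' protocols. Peaks were called by the authors with MACS on WormBase WS220, per the file headers, and each has the authors' deposited score. BWA and ce10, the UCSC name of that build, are named in the submitters' processing notes. The MACS version, its threshold, the use of the input as control and the scale of the score are not stated in the sources used.

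Widths were computed from the first and last base (counted from 1), peaks were placed by midpoint, and each chromosome was measured up to the last base of its final peak. Shares carry exact Clopper-Pearson intervals, densities exact Poisson intervals, density ratios intervals derived from the binomial share of both counts, and medians order-statistic intervals. Intervals of differences combine those of both sides (the MOVER method). The interval procedures were tested on simulated data of independent counts and untied values, unlike the clustered peaks and tied scores of this list. No p-value was computed, since there was 1 library.

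Peaks named are those above 3100, the widest, the narrowest of the top class, those just below it, the widest scoring under 100, the first and last, those at the edges of the regions, and the longest gaps and chains. The peaks that start the later top-class members of the first region were named after their values were seen. Members, regions and lists were chosen with earlier results of these data known. Alternatives covered merging, higher scores, other edges and other references. The omission of the second region or of single windows, the reweighting by width and the comparison with the same relative stretch of other chromosomes were added after seeing the data. No genome of WS220 was used here, so no sequence is shown. Python 3.11.15, numpy 2.4.6, pandas 2.3.3, scipy 1.17.1 and matplotlib 3.10.9 were used.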

Additional observations from a re-analysis of the deposited data

How the results depend on the processing

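No paired analysis was possible because 1 ChIP library was profiled, and no replicate could be left out. Of 115 alternatives over 11 results, 98 stayed within the interval of the reported value. That count includes the placing of peaks by any base, which left every region result unchanged. Only the value had to lie within, so the density ratio without III counted, at 0.926 (0.855 to 1.003), though its own interval included 1. The density ratio of IV to the other autosomes (0.865) became 0.944 with gaps under 5000 bp merged, 0.939 without I, 0.753 without V and 0.934 without the second region (added after seeing the data). It turned to 1.03 with X among the reference, because X has few peaks. The top-class difference of 6.04 points became 10.8 in the higher-scoring 50% and 12.3 at scores of at least 500, both smaller denominators by construction. The width difference of 44.5 bp on IV became -312 (merged under 5000 bp) and 163 (higher-scoring 50%). For the first region, merging under 5000 bp gave a density ratio of 0.698, a width difference of 1341 bp and a score difference of 374, against 0.867, 70 and -18.3, and leaving out window 5 (added) gave a share difference of -7.89 points, against -1.84. For the second region the density ratio of 0.633 became 0.795 in the higher-scoring 50%, the width difference of 312.5 bp became 73.5 (merged under 5000 bp) and -145.5 (higher-scoring 50%), and the score difference of 535 became 1908 (merged under 5000 bp); the cause was not tested. Its top-class difference of 16.5 points lay between 11.5 (window 16 left out) and 25.2 (merged under 5000 bp) in all alternatives run. The count of peaks per window varied by an SD of 0.224 of the mean at 1 Mb, and neither windows of 0.5 nor 2 Mb moved this by over 1.5 times. Depth was unknown and could not be varied.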
